A study of Mus musculus with 4 samples.

Results

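The genes described here are 8 transcription factors of lung mesenchyme, the T-box genes Tbx2, Tbx3, Tbx4 and Tbx5 and the Fox genes Foxf1, Foxf2, Foxp1 and Foxp2. They were chosen by gene name, and each had 1 row among the 31247 genes of the count table. All 8 passed the filter on low counts and were among the 15210 genes tested. The RNA came from Pdgfrb-GFP positive lung cells of mice at postnatal day 7, isolated by flow cytometry and called myofibroblasts in the labels. The conditional knockout (CKO) group carries the PDGFRb-GFP reporter, the transgenes Tbx4-rtTA and Tet-O-Cre, and the allele Dnmt1-D/D. The wild-type (WT) group is labelled Wild type PDGFRb-GFP, and each group has 2 libraries. Both groups carry the GFP reporter, and the protocol names 2 lungs of each genotype. In this system rtTA, a doxycycline-dependent activator driven by Tbx4 sequences, turns on Cre, so the driver of the deletion is built on 1 of the 8 genes measured. The sources used here give neither the timing of doxycycline nor whether WT animals carried rtTA or Cre.

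T-box proteins bind DNA through a shared T domain. Tbx2 and Tbx3 act mainly as repressors that keep embryonic lung mesenchyme proliferating, while Tbx4 and Tbx5 are activators needed for lung bud outgrowth and branching. Fox proteins bind DNA through a forkhead domain. Foxf1 and Foxf2 are activated by hedgehog signals from the epithelium in visceral mesenchyme, and Foxp1 and Foxp2 are repressors best known in lung epithelium that are also made in mesenchymal and other cells. Several of these genes lie in pairs or clusters from which long non-coding RNAs are transcribed off the opposite strand, among them Fendrr beside Foxf1. Dnmt1, the deleted gene, copies methylation of CG dinucleotides (CpG) to the new DNA strand at replication.

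Libraries are named by genotype and a letter that carries no pairing, and they held 23071657 to 26420648 counted reads. Levels are given as CPM, read counts relative to a library size scaled by TMM (edgeR's normalization), and 1 read corresponded to 0.0377 to 0.0439 CPM. Dnmt1 stood at 78.1 CPM in CKO A and 29.5 in CKO B, against 144 in WT A and 115 in WT B, so that CKO A kept 60.3% of the WT mean. The log2 change of -1.27 ± 0.57 (SE, n = 2 per genotype) did not pass in edgeR (adjusted p = 0.310) or DESeq2 (0.260). Without CKO A it was -2.11 and without CKO B -0.72, and each passed (edgeR adjusted p = 3.82e-05 and 0.0401). The authors' deposited table lists an adjusted p of 0.0290 for Dnmt1. CKO A held 4444 reads of 4 Y-linked genes and the other 3 libraries held 0, and WT B had reads on the most genes (27643, against 21883 to 22532 in the others). The part of these differences in the results was not tested, and calls are given below with and without single libraries. Of the alveolar myofibroblast markers, Eln averaged 35881 CPM in CKO and 29044 in WT, and Tnc 5273 CPM in CKO and 7455 in WT. Acta2 averaged 3595 CPM in CKO and 3271 in WT, whereas Tagln averaged 10.6 CPM in CKO and 9.80 in WT. Whether Tagln lost reads to an overlapping gene in counting was not tested, so its count may understate its level. The count column of WT A has a name of another form than those of the other 3 libraries, which share a prefix. What the prefix marks is not stated, and its part in the results that change without WT A was not tested. Since Y-linked reads were seen in CKO A alone, CKO A held male cells that CKO B and both WT libraries lacked. The CKO libraries therefore do not come from the same animal. Sex is not in the labels, and its part in the results was not tested. Nothing in the labels says that the libraries came from separate litters or preparations. The p-values reflect spread among 4 libraries, which within WT may be technical.

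Sequence around the starts of these genes was taken from RefSeq (GRCm38.p6), in windows of 250 bases before and 50 after a start. Windows existed for 3 of the 8 genes (Foxf2, Tbx4 and Foxp1, with 3 starts) and for 3 of the opposite-strand RNAs that begin near them. Their RefSeq starts can differ from the GENCODE starts used elsewhere, and for 1700018A04Rik the window lies on chromosome 13 at 31582464 to 31582763, away from Foxf2. The 4 shown belong to Fendrr and Tbx3os1, the opposite-strand RNAs that fell, to Foxf2, and to the most CpG-rich start of Foxp1. That Foxp1 start lies inside the gene. Capitals mark each CpG.
Fendrr, chr8:121083061-121083360, minus strand: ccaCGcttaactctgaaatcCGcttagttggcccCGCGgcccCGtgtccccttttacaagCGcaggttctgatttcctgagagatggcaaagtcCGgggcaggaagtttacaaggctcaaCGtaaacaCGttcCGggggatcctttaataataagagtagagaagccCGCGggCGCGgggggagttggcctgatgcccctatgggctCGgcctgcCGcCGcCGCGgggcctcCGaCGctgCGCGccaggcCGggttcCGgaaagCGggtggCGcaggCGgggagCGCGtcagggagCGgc
Tbx3os1, chr5:119671459-119671758, minus strand: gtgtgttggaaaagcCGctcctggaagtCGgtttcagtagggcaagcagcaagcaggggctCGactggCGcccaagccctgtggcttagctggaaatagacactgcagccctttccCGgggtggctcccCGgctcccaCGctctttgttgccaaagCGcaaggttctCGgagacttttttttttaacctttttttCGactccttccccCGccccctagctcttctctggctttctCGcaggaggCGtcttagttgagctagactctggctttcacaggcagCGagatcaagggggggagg
Foxf2, chr13:31625566-31625865, plus strand: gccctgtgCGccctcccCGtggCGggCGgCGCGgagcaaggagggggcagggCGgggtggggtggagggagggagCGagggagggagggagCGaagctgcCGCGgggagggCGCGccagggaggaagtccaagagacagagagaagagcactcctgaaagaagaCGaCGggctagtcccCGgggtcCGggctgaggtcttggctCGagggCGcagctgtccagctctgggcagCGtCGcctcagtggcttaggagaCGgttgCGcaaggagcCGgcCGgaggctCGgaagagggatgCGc
Foxp1, chr6:99028249-99028548, minus strand: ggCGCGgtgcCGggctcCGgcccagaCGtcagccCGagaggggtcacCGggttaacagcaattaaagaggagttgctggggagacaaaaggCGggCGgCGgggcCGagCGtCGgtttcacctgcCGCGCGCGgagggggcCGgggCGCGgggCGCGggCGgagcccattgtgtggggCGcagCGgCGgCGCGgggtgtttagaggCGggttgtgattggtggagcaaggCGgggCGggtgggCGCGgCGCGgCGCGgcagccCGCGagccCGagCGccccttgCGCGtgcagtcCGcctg

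The windows differed widely in CpG. The Fendrr window held 31, and 89.4% of the 32851 windows in the RefSeq table held fewer. The Foxf2 window held 27 (84.5% of windows held fewer) and that of Tbx3os1 held 14 (63.7%). The 3 Foxp1 starts held 13, 5 and 44, the last being the one printed and exceeding 97.8% of windows, and the counts sum over all of these starts. The printed window lies inside the gene, far from its GENCODE start at 99522721. The window nearest that start (99520944 to 99521243) is the one with 13 (62.1% of windows held fewer). The Tbx4 window, at a start inside the gene, held 8. The forkhead core GTAAACA, searched on both strands, was present once in the Fendrr window and in none of the other 7, where 3.65% of all windows hold it. The T-box motif AGGTGTGA, also searched on both strands, was in none of the 8 windows and in 1.28% of all windows.

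Foxp1 and Tbx2 fell in CKO cells, and no gene of the 8 rose. Of all 15210 tested genes, 2.75% were called lower and 4.85% higher at an adjusted p under 0.05 in edgeR, or 7.61% in either direction. The changes of 7 of the 8 genes lay below 0, with a median log2 change of -0.56, against -0.01 over all tested genes. Both CKO libraries lay below both WT libraries for 5 of the 8 (Tbx2, Tbx4, Tbx5, Foxp1 and Foxp2), where this holds for 29.3% of tested genes and 57.1% do not overlap in one direction or the other. The number of the 8 called lower was 4 in DESeq2 (Tbx2, Tbx4, Tbx5 and Foxp1, with 3.85% of all tested genes), 2 in limma-voom (1.85%), 2 with RLE size factors (2.24%), 3 with library size alone (3.64%), 5 with no filter (2.93%), 2 with a mean CPM of at least 1 (2.46%) and 2 without robust estimation (2.08%). It was 3 without CKO A (3.38%), 1 without CKO B (2.62%), 1 without WT A (1.33%) and 1 without WT B (0.574%). The single call was Foxp1 without CKO B, Foxp2 without WT A and Tbx5 without WT B. In bulk RNA a lower share of cells making a factor and less RNA per cell cannot be told apart.

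**Figure D1:**
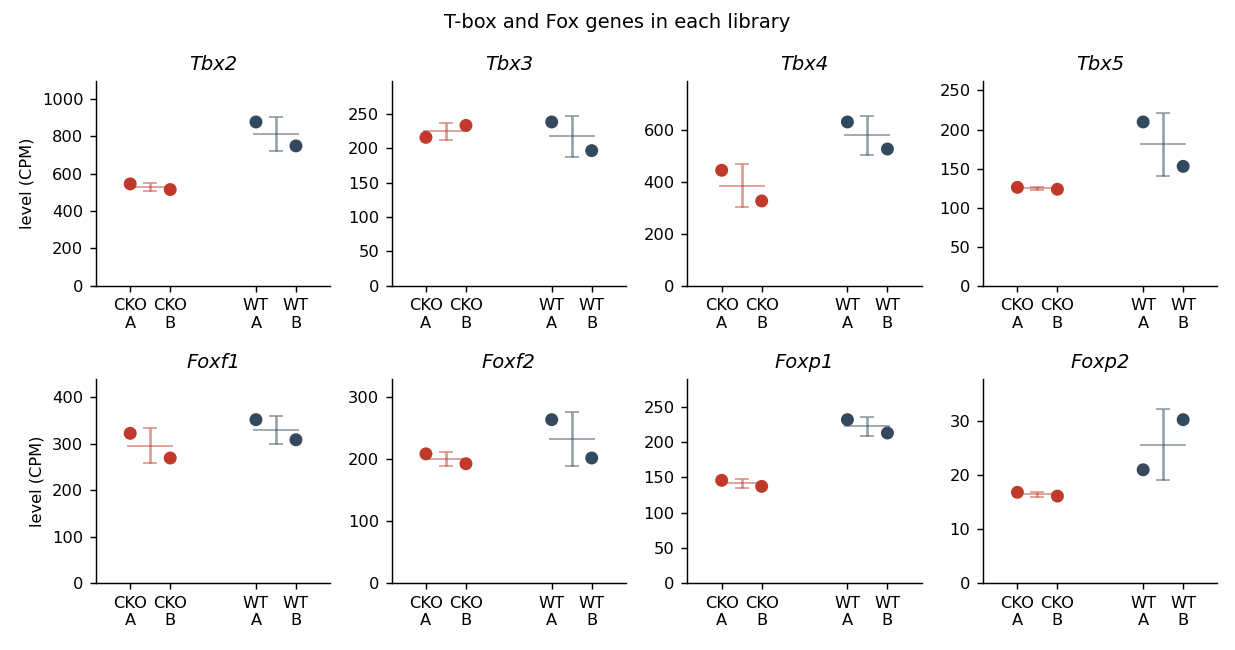
Level in CPM (vertical axis, from 0) of each of the 8 genes in the 2 CKO (red) and 2 WT (dark blue) libraries, with the mean and SD of each group as a bar. Tbx2, Tbx4, Tbx5, Foxp1 and Foxp2 have both CKO points below both WT points, while those of Tbx3, Foxf1 and Foxf2 overlap.

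Tbx2 encodes a repressor that holds back Cdk inhibitor genes in developing lung mesenchyme (ENSMUSG00000000093, chromosome 11, 85832551 to 85841948, GRCm38). Tbx2 was at 545 CPM in CKO A and 515 in CKO B, against 877 in WT A and 749 in WT B. The CKO libraries lay close together and both were well below WT. The fold difference was 1.53-fold lower in CKO (log2 change -0.62 ± 0.14 SE, n = 2 per genotype, edgeR adjusted p = 0.035). The call was kept without CKO A (edgeR adjusted p = 0.0305) and lost without each of the others, with an edgeR adjusted p of 0.0647 without CKO B, 0.256 without WT A and 0.0939 without WT B.

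Tbx3, the closest paralog of Tbx2 and also a repressor (ENSMUSG00000018604, chromosome 5, 119670669 to 119684724), had 216 CPM in CKO A and 233 in CKO B, against 238 in WT A and 196 in WT B. Its groups overlapped. The log2 change was 0.05 with a 95% interval of -0.25 to 0.34 (edgeR adjusted p = 0.860), which leaves out a fall of the size seen for Tbx2. Its sign turned without CKO B (-0.0002) and without WT B (-0.077). Reads of Tbx2 came to 253% of those of Tbx3 in CKO A and 221% in CKO B, against 368% in WT A and 381% in WT B. These groups of ratios did not overlap, but with 2 libraries against 2 an exact permutation test cannot go below the p = 0.333 found here (two-sided, 0.667 after Benjamini-Hochberg adjustment over the 12 gene pairs compared).

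Tbx4, which with Tbx5 directs lung bud mesenchyme (ENSMUSG00000000094, chromosome 11, 85886422 to 85916097), had 446 CPM in CKO A and 327 in CKO B, against 632 in WT A and 528 in WT B. Its CKO libraries were the furthest apart of the 8 genes, at 76.8% of the WT mean in CKO A and 56.4% in CKO B. CKO B is also the library with less Dnmt1, and the part of that difference was not tested. The log2 change of -0.59 ± 0.18 (SE, n = 2 per genotype) did not pass in edgeR (adjusted p = 0.0861). Without CKO A it was -0.80 and passed (edgeR adjusted p = 0.00922), without CKO B it was -0.37, and DESeq2 called it on all 4 libraries (adjusted p = 0.0163). The sources used here do not say whether reads of the Tbx4-rtTA transgene can map to this gene.

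Tbx5 (ENSMUSG00000018263, chromosome 5, 119832668 to 119885219) was at 126 CPM in CKO A and 124 in CKO B, against 210 in WT A and 153 in WT B. The spread lay in WT, and the groups did not overlap. Its log2 change of -0.54 ± 0.16 (SE, n = 2 per genotype) missed the threshold (edgeR adjusted p = 0.0790), and DESeq2 called it (adjusted p = 0.0328). Tbx5 reads stood at 28.3% of Tbx4 reads in CKO A and 37.7% in CKO B, against 33.2% in WT A and 28.9% in WT B, and these ratios overlapped (exact permutation p = 1, two-sided).

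Foxf1, a hedgehog-responsive factor of lung mesenchyme and endothelium (ENSMUSG00000042812, chromosome 8, 121084386 to 121088144), had 323 CPM in CKO A and 270 in CKO B, against 352 in WT A and 309 in WT B. Foxf2, its paralog on chromosome 13 (ENSMUSG00000038402, 31625816 to 31631403), had 208 CPM in CKO A and 192 in CKO B, against 263 in WT A and 201 in WT B. The groups of both genes overlapped. The log2 change was -0.16 for Foxf1, with a 95% interval of -0.47 to 0.16 (edgeR adjusted p = 0.518). For Foxf2 it was -0.21, with an interval of -0.55 to 0.12 (edgeR adjusted p = 0.403). Each interval includes both no change and a moderate fall, and the change of Foxf2 was 0.0026 without WT A. Foxf2 reads came to 64.4% of Foxf1 reads in CKO A and 71.2% in CKO B, against 74.6% in WT A and 65.2% in WT B, so the balance of the paralogs overlapped between genotypes.

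Foxp1, a forkhead repressor (ENSMUSG00000030067, chromosome 6, 98925338 to 99522721), was at 146 CPM in CKO A and 137 in CKO B, against 232 in WT A and 213 in WT B. Replicates agreed closely in both genotypes. Foxp1 was 1.57-fold lower in CKO (log2 change -0.65 ± 0.11 SE, n = 2 per genotype, edgeR adjusted p = 0.0149). The call was lost without WT A (edgeR adjusted p = 0.0892) and without WT B (0.0601) and kept without either CKO library. A predicted gene, Gm20696, is annotated across part of Foxp1 on the same strand, had 0 to 19 reads per library, and could share reads with it.

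Foxp2 (ENSMUSG00000029563, chromosome 6, 14901349 to 15441977), the least abundant of the 8, had 16.8 CPM in CKO A and 16.1 in CKO B, against 20.9 in WT A and 30.2 in WT B. Its groups did not overlap, and WT B stood above WT A. The log2 change of -0.64 ± 0.19 (SE, n = 2 per genotype) did not pass (edgeR adjusted p = 0.0792), passed without WT A (log2 change -0.86, edgeR adjusted p = 0.0389) and was -0.34 without WT B. Foxp4, the remaining Foxp gene with substantial expression, averaged 178 ± 22.1 CPM in CKO and 200 ± 7.96 in WT (SD, n = 2). The 95% interval of its log2 change was -0.45 to 0.12 (edgeR adjusted p = 0.445). Its groups did not overlap either, at 163 CPM in CKO A and 194 in CKO B, against 206 in WT A and 195 in WT B. Foxp1 reads were 89.7% of Foxp4 reads in CKO A and 70.9% in CKO B, against 113% in WT A and 109% in WT B, without overlap (exact permutation p = 0.333, two-sided, the smallest possible).

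**Figure D2:**
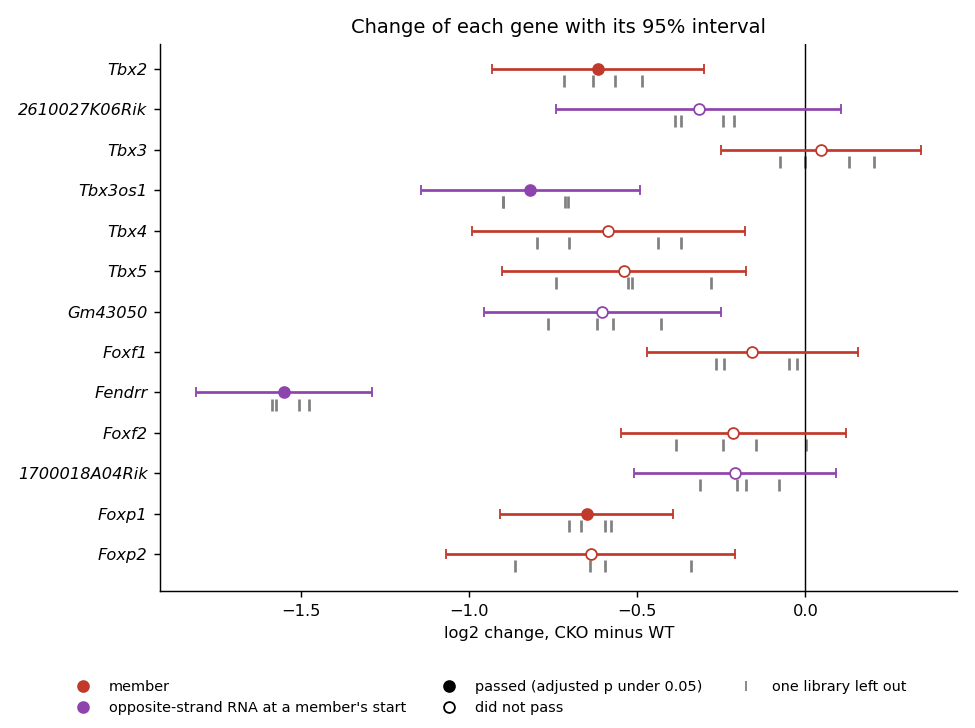
Log2 change of CKO minus WT (horizontal axis) with its 95% interval for the 8 genes (red) and for 5 RNAs that start beside them on the opposite strand (purple), from edgeR on all 4 libraries. Filled points passed at an adjusted p under 0.05, and grey ticks under each point give the change with 1 library left out, which for Fendrr stays between -1.59 and -1.48.

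Of the 8 genes, the authors' deposited table lists an adjusted p under 0.05 for Foxp1 (0.00618) and Tbx2 (0.0211), with log2 fold changes of -0.61 and -0.58. For Tbx4, Tbx5 and Foxp2 the authors' deposited table has adjusted p values of 0.117, 0.150 and 0.139, and for Foxf1, Foxf2 and Tbx3 of 1, 0.927 and 1.

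Markers of some other cell types moved with genotype as well. For the counts of calls that follow, edgeR called 4.85% of all tested genes higher and 2.75% lower. Summed over 12 immune markers the level was 81.4 CPM in CKO A and 55.0 in CKO B, against 35.3 in WT A and 46.6 in WT B, and 5 of the 9 tested were called higher. The sum of 8 adventitial fibroblast markers was 1158 CPM in CKO A and 1807 in CKO B, against 898 in WT A and 994 in WT B, with 5 of 8 called higher. All 8 had log2 changes above 0, with a median of 1.09. Groups did not overlap for 7 of them (57.1% of all tested genes). Summed endothelial markers (186 to 271 CPM in CKO and 205 to 240 in WT) and epithelial markers (84.0 to 158 CPM in CKO and 63.5 to 197 in WT) overlapped. Of 12 endothelial markers 1, Erg, was called lower, while 10 had log2 changes above 0 and 2 below, with a median of 0.28. Summed alveolar myofibroblast markers were at 50680 to 54415 CPM in CKO and 50580 to 51243 in WT, with Eln as the largest term. Of the 10 markers, 6 had log2 changes below 0 and 4 above, with a median of -0.32. Groups did not overlap for 6 of them (57.1% of all tested genes), with CKO lower for 5 (29.3%). Pdgfra (365 CPM in CKO and 554 in WT) and Pdgfrb (345 CPM in CKO and 492 in WT) had log2 changes of -0.60 and -0.51. These narrowly missed the threshold in edgeR (adjusted p = 0.0526 and 0.0546). Both passed as lower in DESeq2 (adjusted p = 0.00371 for Pdgfra and 0.00496 for Pdgfrb), and in edgeR with library size alone, with no filter and without CKO A. The Pdgfrb reporter is the one by which the cells were sorted. The lipofibroblast sum was 500 and 951 CPM in CKO, against 369 and 350 in WT, with 1 of 8 called higher, and the Schwann sum was 17.7 and 18.4 CPM in CKO, against 2.85 and 4.30 in WT, with 1 of 3 called higher. Erythroid markers summed to 14.0 and 7.42 CPM in CKO, against 22.8 and 30.2 in WT, with 2 of 5 called lower. In edgeR, cartilage markers (43.7 and 54.2 CPM in CKO, against 315 and 71.9 in WT) had no call, nor had pericyte markers (1021 and 1081 CPM in CKO, against 1132 and 1008 in WT) or mesothelial markers (20.7 and 7.16 CPM in CKO, against 3.42 and 11.5 in WT). For the lists with 0 calls in edgeR, the number at an unadjusted p under 0.05 was 2 for cartilage, 4 for pericyte, 3 for alveolar myofibroblast, 0 for mesothelial and 0 for epithelial markers, and DESeq2 called 1, 1, 3, 0 and 0 of them in the same order. None of these lists had a marker at 0 reads in all 4 libraries, and the part of cell composition in the changes of Tbx2 and Foxp1 was not tested.

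The largest difference at these loci was in Fendrr, a long non-coding RNA gene whose start lies 1276 bases from that of Foxf1 and which is read in the opposite direction (ENSMUSG00000097336, chromosome 8, 121054882 to 121083110). In mouse embryos Fendrr is needed for heart and body wall development. Fendrr had 74.9 CPM in CKO A and 68.6 in CKO B, against 205 in WT A and 215 in WT B. Both CKO libraries were far below WT, at 35.7% in CKO A and 32.6% in CKO B of the WT mean. The fold difference was 2.93-fold lower in CKO (log2 change -1.55 ± 0.11 SE, n = 2 per genotype, edgeR adjusted p = 0.000978), and Fendrr passed in every alternative run. Fendrr reads came to 23.2% of Foxf1 reads in CKO A and 25.4% in CKO B, against 58.1% in WT A and 69.7% in WT B. The 95% intervals of the Fendrr change (-1.81 to -1.29) and the Foxf1 change (-0.47 to 0.16) lay apart, and the exact permutation test on their ratio gave p = 0.333, the smallest it allows (two-sided).

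A similar separation was seen at Tbx3. Tbx3os1, an antisense RNA that starts 696 bases inside Tbx3 (ENSMUSG00000087516, chromosome 5, 119570130 to 119671365), had 18.8 CPM in CKO A and 16.3 in CKO B, against 32.9 in WT A and 29.0 in WT B. It fell 1.76-fold (log2 change -0.82 ± 0.14 SE, n = 2 per genotype, edgeR adjusted p = 0.0154), while Tbx3 kept overlapping groups. Tbx3os1 reads were 8.72% of Tbx3 reads in CKO A and 6.98% in CKO B, against 13.8% in WT A and 14.8% in WT B (exact permutation p = 0.333, two-sided). Both annotations share 697 bases, and whether strand was used in counting is not stated, so reads from that stretch cannot be assigned to either. The call was lost without WT A (edgeR adjusted p = 0.0940) and without WT B (0.0605).

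Opposite-strand RNAs at 3 further starts did not pass in edgeR on all 4 libraries, and 1 of them, Gm43050, passed in other settings. For each of the 3, both CKO libraries lay below both WT libraries, as for 29.3% of tested genes. Gm43050, which starts 748 bases from Tbx5, had 20.3 CPM in CKO A and 15.9 in CKO B, against 28.0 in WT A and 27.2 in WT B (log2 change -0.60, edgeR adjusted p = 0.0524). It passed as lower in DESeq2 (adjusted p = 0.0359), and in edgeR with library size alone (adjusted p = 0.0437) and with no filter (0.00642). It did not pass in limma-voom (adjusted p = 0.0664), nor in edgeR with RLE size factors (0.0580), a mean CPM of at least 1 (0.0559) or robust estimation off (0.0617). The log2 change of Gm43050 was -0.76 without CKO A and -0.43 without CKO B. Its reads per Tbx5 read overlapped between genotypes, at 16.1% in CKO A and 12.9% in CKO B, against 13.4% in WT A and 17.8% in WT B. The transcript 2610027K06Rik, 328 bases from Tbx2, averaged 7.37 ± 0.565 CPM in CKO and 9.18 ± 0.553 in WT (SD, n = 2, edgeR adjusted p = 0.326). The RNA 1700018A04Rik starts 24 bases from Foxf2, and its start falls within the Foxf2 window printed above. It averaged 26.2 ± 0.572 CPM in CKO and 30.3 ± 3.45 in WT (SD, n = 2, edgeR adjusted p = 0.363). Its reads came to 12.8% and 13.4% of those of Foxf2 in CKO, against 12.5% and 13.8% in WT, and these ratios overlapped.

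**Figure D3:**
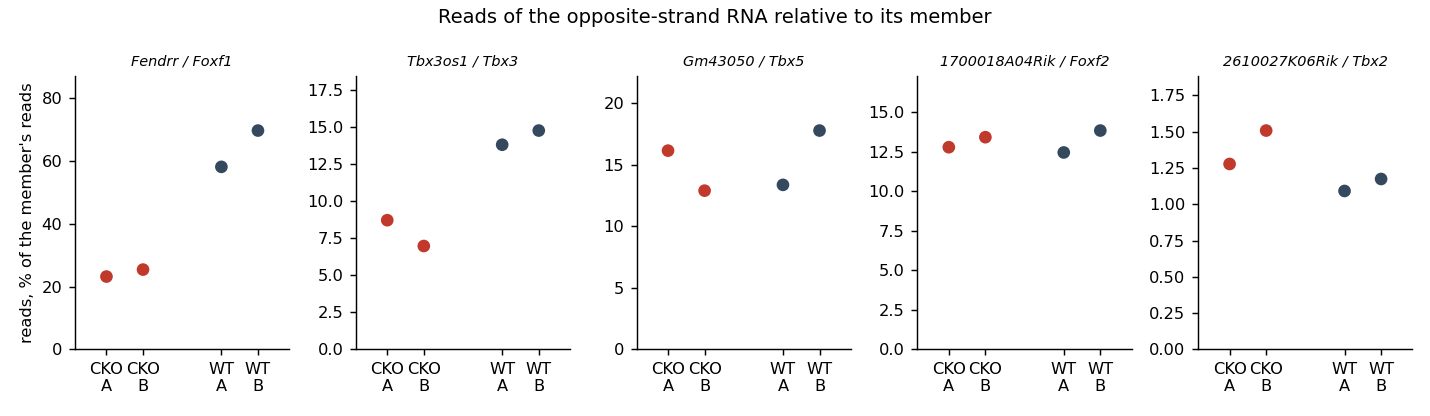
Reads of each opposite-strand RNA as a percentage of the reads of the T-box or Fox gene beside it (vertical axes, from 0), in the 2 CKO (red) and 2 WT (dark blue) libraries. The ratio of Fendrr to Foxf1 is 23.2% and 25.4% in CKO against 58.1% and 69.7% in WT, whereas those at Tbx5 and Foxf2 overlap. At Tbx2 the ratio is 1.28% and 1.51% in CKO against 1.09% and 1.17% in WT.

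Across a wider stretch, 18 tested genes other than the 8 themselves start within 250 kb of one of them. In edgeR 2 of the 18, Fendrr and Tbx3os1, were called, both lower. Of all tested genes 2.75% were called lower and 7.61% in either direction. The median log2 change of the 18 neighbours was -0.27, against -0.01 over all tested genes. Of the 7 protein-coding neighbours 0 were called in edgeR, with 0 at an unadjusted p under 0.05 and 0 called in DESeq2, among them the Fox genes that share clusters with Foxf1 and Foxf2. Foxl1, a hedgehog-responsive factor of gut and lung mesenchyme 43554 bases from Foxf1, averaged 27.9 ± 0.0539 CPM in CKO and 22.2 ± 3.64 in WT (SD, n = 2, edgeR adjusted p = 0.210). Foxc2 averaged 7.11 ± 2.94 CPM in CKO and 5.28 ± 1.66 in WT, and Foxc1 2.17 ± 1.08 CPM in CKO and 1.43 ± 0.526 in WT (SD, n = 2, edgeR adjusted p = 0.498 and 0.470). All 11 non-coding neighbours had log2 changes below 0 and 2 of them were called lower. Of 945 tested long non-coding genes, 4.34% were called lower. The share of those genes below 0 was not counted, so whether the shared sign is unusual was not tested. By CPM, WT A exceeded both CKO libraries for all of these neighbours except Gm43399. WT B stood well above the rest for Bcas3os1 (3.43 CPM, against 0.949 to 1.19) and Gm43399 (0.905, against 0.495 to 0.604). The part of WT B, which had reads on the most genes, was not tested.

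**Figure D4:**
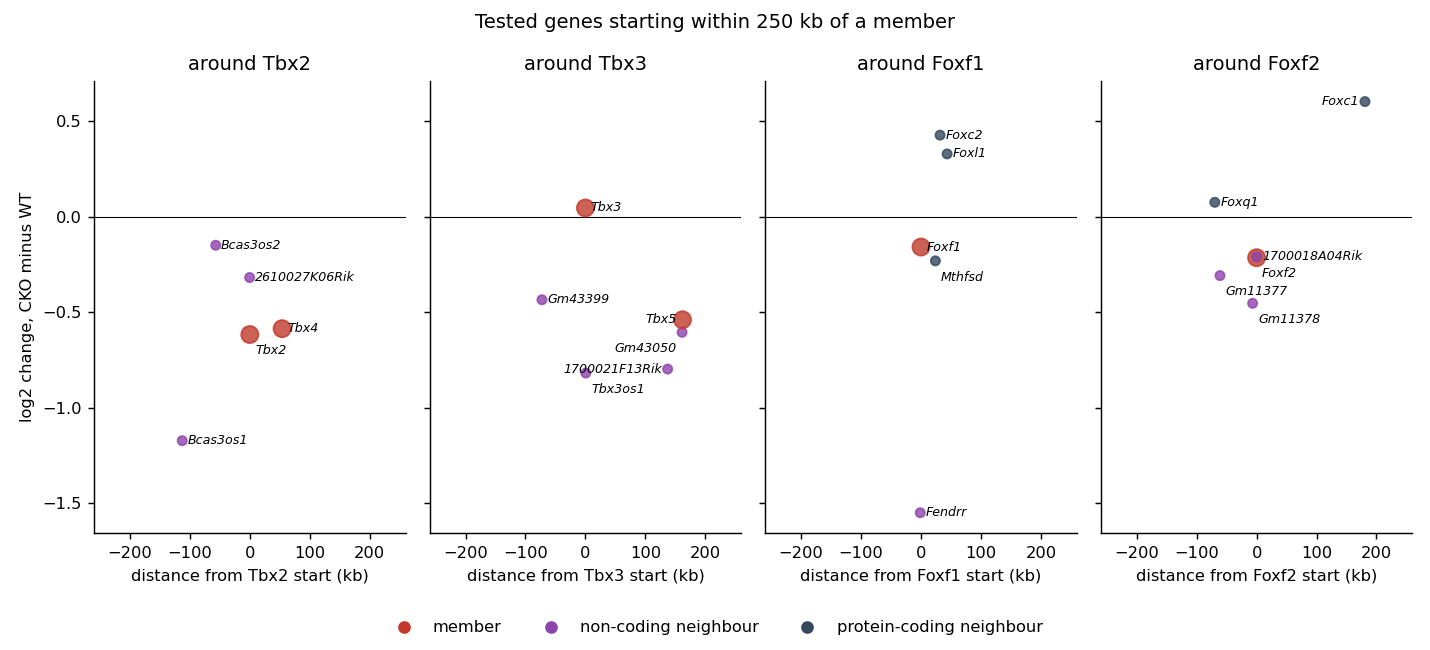
Log2 change of CKO minus WT (vertical axis) of tested genes against the distance of their start from that of Tbx2, Tbx3, Foxf1 or Foxf2 (horizontal axis, kb, positive downstream). Fendrr at -1.55 lies next to Foxf1 at -0.16, and the 2 tested neighbours of Foxp1 (Gpr27 and Eif4e3, log2 changes 0.08 and -0.10) are not drawn.

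Levels of different genes were compared per length, as RPKM, the CPM divided by the merged exon length in kilobases. Over all 4 libraries Tbx2 was highest, with a mean of 185 RPKM, and above 98.9% of tested genes. It was followed by Tbx4 (142 RPKM), Foxf1 (130) and Foxf2 (91.4), then Tbx3 (33.3) and Tbx5 (32.7), Foxp1 (13.2) and Foxp2 (1.28), which exceeded 29.7% of tested genes. The ranges of Tbx2 (142 to 242 RPKM) and Tbx4 (96.2 to 186), of Tbx4 and Foxf1 (112 to 146), and of Tbx3 (29.6 to 35.9) and Tbx5 (26.4 to 44.9) overlapped, and the other neighbours in this order did not. Tbx4 stood below Foxf1 in CKO A (131 and 134 RPKM) and CKO B (96.2 and 112) but above it in WT A (186 and 146) and WT B (155 and 128). Tbx3 stood above Tbx5 in CKO A (32.6 and 26.9 RPKM) and CKO B (35.2 and 26.4) but below it in WT A (35.9 and 44.9) and WT B (29.6 and 32.7). These orders depend on the length used, and with the longer gene lengths of the authors' deposited table Tbx4 averaged 52.8 RPKM and Tbx3 11.7.

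**Figure D5:**
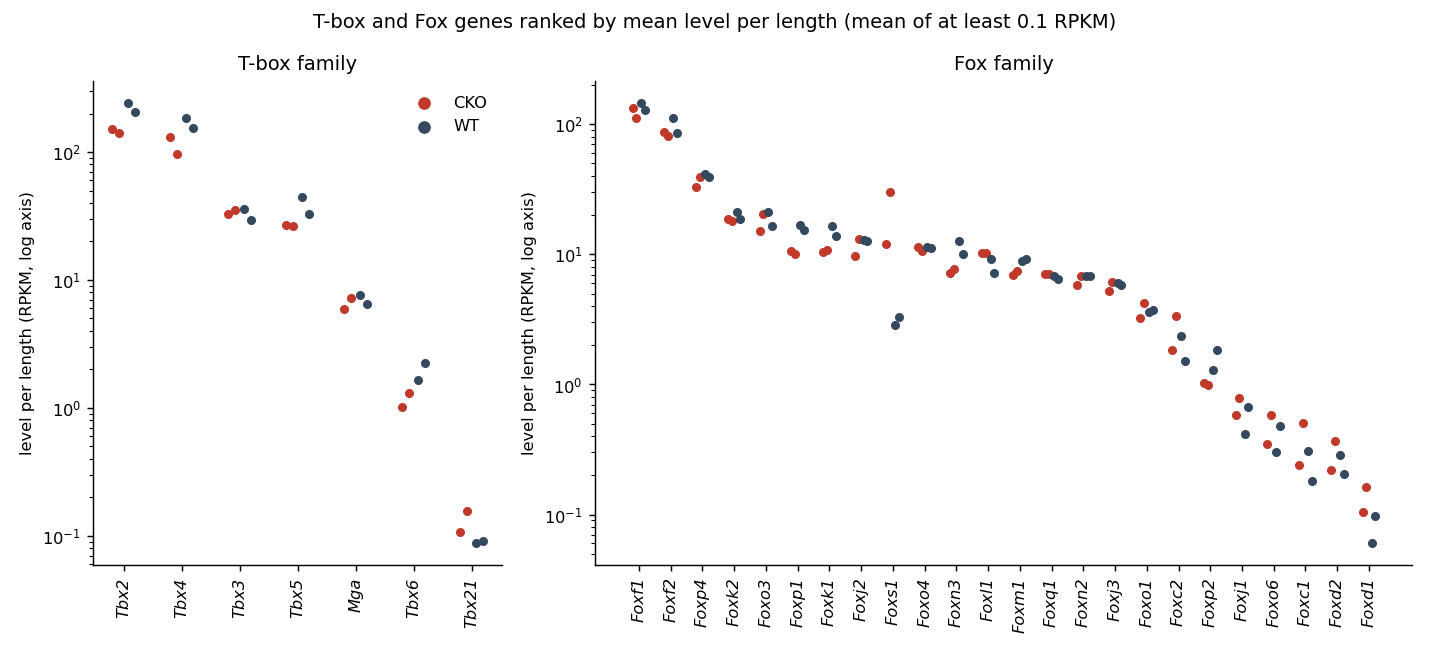
Level per length in RPKM (vertical axes, logarithmic) of T-box genes (left) and Fox genes (right) with a mean of at least 0.1 RPKM, ordered by mean, in CKO (red) and WT (dark blue) libraries. The 4 T-box members hold the top ranks of their family, and Foxf1 and Foxf2 head the Fox family at 130 and 91.4 RPKM.

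The 4 T-box members made up 97.1% to 98.1% of the summed RPKM of the 16 T-box genes with reads. The share of Tbx2 alone was 43.2% and 46.0% in CKO, against 46.7% and 47.7% in WT, and that of Tbx3 was 9.35% and 11.4% in CKO, against 6.93% and 6.84% in WT. Of the other T-box genes 3 could be tested (Mga, Tbx6 and Tbx20) and 0 were called in edgeR, with 1 (Tbx6) at an unadjusted p under 0.05 and 0 called in DESeq2. Tbx15 and Tbx18 had 3 to 9 reads per library.

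The 4 Fox members made up 50.8% to 59.7% of the summed RPKM of 32 Fox genes with reads. Of 20 other Fox genes tested, edgeR called 2 lower and 0 higher, with 10 below 0 and 10 above. Of all tested genes, edgeR called 2.75% lower and 4.85% higher. DESeq2 called 3 of the other Fox genes (1559 of all 14915 genes it tested), and 4 had an unadjusted p under 0.05 in edgeR. Foxn3, a repressor linked to the cell cycle checkpoint, was at 83.1 CPM in CKO A and 88.1 in CKO B, against 145 in WT A and 116 in WT B, 1.53-fold lower (edgeR adjusted p = 0.0341). Foxk1, a regulator of metabolism and autophagy genes, was 1.44-fold lower (edgeR adjusted p = 0.0450). Foxk1 also passed in DESeq2 (adjusted p = 0.0145), and in edgeR with library size alone (0.0263) and with no filter (0.00733). It did not pass in limma-voom (adjusted p = 0.0610), nor in edgeR with RLE size factors (0.0563), a mean CPM of at least 1 (0.0514) or robust estimation off (0.0600). Foxn3 lost its call without CKO A, without CKO B and without WT A, and Foxk1 without any 1 of the 4 libraries. Foxs1, singled out after its values were seen, had 15.8 CPM in CKO A and 39.4 in CKO B, against 3.73 in WT A and 4.34 in WT B, a 6.81-fold difference whose call depended on the tool. It missed the threshold in edgeR (adjusted p = 0.0613) and passed as higher in DESeq2 (adjusted p = 5.18e-11) and limma-voom (0.045). In edgeR it also passed with no filter (adjusted p = 0.000131) and with robust estimation off (0.015). It did not pass in edgeR with RLE size factors (adjusted p = 0.0575), library size alone (0.0578) or a mean CPM of at least 1 (0.0732). The log2 change of Foxs1 was 3.31 without CKO A, 1.98 without CKO B, 2.68 without WT A and 2.90 without WT B.

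Genes known as targets or partners of these factors gave 2 calls in edgeR among 17 tested, both higher, against 4.85% of all tested genes called higher. Cdkn1a, which encodes the Cdk inhibitor p21 and is a known target of repression by Tbx2 and Tbx3, was at 121 CPM in CKO A and 162 in CKO B, against 34.5 in WT A and 39.2 in WT B (3.84-fold higher, edgeR adjusted p = 0.00177). Cdkn1a is also a p53 target. Fgf10, the branching signal that Tbx4 and Tbx5 promote in the lung bud, had 11.8 CPM in CKO A and 17.4 in CKO B, against 6.32 in WT A and 7.02 in WT B (2.19-fold higher, edgeR adjusted p = 0.0232, lost without WT A and without WT B). Shisa3, a Wnt antagonist that Tbx2 represses in lung mesenchyme, had 8.45 CPM in CKO A and 17.7 in CKO B, against 5.84 in WT A and 4.79 in WT B, which did not pass in edgeR (adjusted p = 0.0877). Shisa3 passed as higher in DESeq2 (adjusted p = 0.0071) and in edgeR with no filter (adjusted p = 1.17e-07). It did not pass in limma-voom (adjusted p = 0.118), nor in edgeR with RLE size factors (0.0944), library size alone (0.0727), a mean CPM of at least 1 (0.109) or robust estimation off (0.0743). Its log2 change was 1.76 without CKO A and 0.68 without CKO B. Frzb and Cdkn1b, further genes repressed by Tbx2, had log2 changes of -0.16 and -0.05 with groups that overlapped, and neither passed in any setting. Bmp4, a growth factor, had a log2 change of -0.48 that missed the threshold in edgeR (adjusted p = 0.0524) and passed in DESeq2 (adjusted p = 0.0177). Bmp4 also passed in edgeR with library size alone (adjusted p = 0.0389) and with no filter (0.0170). It did not pass in limma-voom (adjusted p = 0.0649), nor in edgeR with RLE size factors (0.0580), a mean CPM of at least 1 (0.0532) or robust estimation off (0.0680). Myocd and Acta2 of smooth muscle had overlapping groups, with log2 changes of 0.04 and 0.14. DESeq2 called 4 of the list (Cdkn1a, Fgf10, Shisa3 and Bmp4). The list as a whole had a median of 0.05, with 6 members below 0 and 11 above.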

How the data were processed

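The authors deposited 1 table of the series with raw read counts per gene for 2 CKO and 2 WT libraries. The submitters' processing notes list STAR, edgeR 3.28.1, Trimmomatic 0.36, cutadapt 2.5 and FastQC 0.11.8, with the build GRCm38.p6 and no order of steps. The sources used here give neither the counting tool nor its strand setting. Per the file headers the table also holds the authors' log2 fold change, mean log2 CPM, p-value, adjusted p-value and gene length, and 4 columns of per-sample values were not used. Count columns name the genotype and no replicate.

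Counts were tested in R 4.3.3 with edgeR 4.0.16 (filterByExpr with a minimum count of 10, TMM, glmQLFit and glmQLFTest, robust), with Benjamini-Hochberg adjustment over 15210 genes and a threshold of 0.05. Each standard error is the absolute log2 change over the root of its F statistic. Depth was 23071657 to 26420648 counted reads per library. Coordinates and merged exon lengths came from GENCODE M21 (GRCm38), matched for 31183 of 31247 genes. The annotated starts within 1500 bases, on the opposite strand, define the RNAs at a start, a limit set after values were seen. RPKM and TPM were computed from counts and merged exon lengths. Ratios were compared by exact permutation over libraries in scipy 1.17.1. Promoter windows are RefSeq's.

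The genes and all lists were chosen with earlier results of these data known. Named genes were the 8 members, called genes of each list (at most 6), Foxp4, Foxc1, Foxc2, Foxl1, Tbx15 and Tbx18, called neighbours within 250 kb, RNAs at member starts, and the 3 genes closest in pattern to the member with the lowest p. Erg, Foxs1, Shisa3, Frzb, Cdkn1b, Bmp4, Myocd, Acta2, Ptch1, Tcf21, Gli3 and the marker genes were named after their values were seen. Tests were tried on simulated data. Alternatives were DESeq2 1.42.0, limma-voom (limma 3.58.1), an adjusted p under 0.01, leaving out each library, library size alone, RLE size factors, a mean CPM of at least 1, robust estimation off and no filter.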

Additional observations from a re-analysis of the deposited data

How the results depend on the processing

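With 2 libraries per genotype, calls near the threshold moved with 1 library or the tool, whereas 6 genes (Tbx2, Tbx4, Tbx5, Foxf1, Foxp1 and Foxp2) kept log2 changes below 0 in every alternative run. The cause of each shift was not tested. No paired analysis was possible because the count columns carry no replicate number. With 1 library left out in turn, log2 changes ranged from -0.72 to -0.49 for Tbx2, -0.80 to -0.37 for Tbx4, -0.74 to -0.28 for Tbx5, -0.70 to -0.58 for Foxp1 and -0.86 to -0.34 for Foxp2. They ranged from -0.08 to 0.20 for Tbx3, with -0.0002 without CKO B and -0.077 without WT B, from -0.39 to 0.0026 for Foxf2 (without WT A), and from -0.27 to -0.02 for Foxf1. Fits without 1 WT or 1 CKO library leave a lone library, which is assumed to vary like the other genotype. Counts in those fits ranged from 339 (without WT B) to 1842 (without CKO A) for all genes, against 1157, from 0 to 1 for other Fox genes, 1 to 4 for targets and partners, and 1 to 3 for neighbours. At an adjusted p under 0.01 Tbx2 (-0.62) and Foxp1 (-0.65) no longer passed, and the counts were 241 over all genes, 0 for other Fox genes, 1 for targets and partners and 1 for neighbours. DESeq2 called Tbx4 (log2 change -0.58) and Tbx5 (-0.53) as well, and 4 targets and partners. With no filter 2459 genes were called, with Tbx4 (-0.55), Tbx5 (-0.50) and Foxp2 (-0.60) among them, 4 other Fox genes and 5 targets and partners. With library size alone Tbx5 passed (-0.56). RLE size factors and a mean CPM of at least 1 each left 1 other Fox gene. Foxc1 and Foxc2 changed sign without CKO B (-0.0047 and -0.059), with highest values of 1.07 and 0.83 without CKO A, and passed in none of the alternatives. As TPM, mean levels were 748 for Tbx2, 573 for Tbx4, 521 for Foxf1, 367 for Foxf2, 134 for Tbx3, 132 for Tbx5, 53.5 for Foxp1 and 5.19 for Foxp2, in the same order as the RPKM. With the deposited gene lengths, an alternative added after seeing the data, Tbx4 was at 52.8 RPKM, Tbx3 at 11.7, Foxp1 at 3.32 and Foxp2 at 0.521.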

Other observations

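Other transcription factors of lung mesenchyme gave 2 calls in edgeR among 15 tested, both lower, where edgeR called 2.75% of all tested genes lower. DESeq2 gave 4 calls. Of the 15, 6 had log2 changes below 0 and 9 above, with a median of 0.10. Nr2f2, a nuclear receptor of mesenchyme and venous endothelium, had 82.4 CPM in CKO A and 94.3 in CKO B, against 170 in WT A and 148 in WT B (1.80-fold lower, edgeR adjusted p = 0.0095), and passed in every alternative run. Meis1, a homeobox cofactor of Hox proteins, had 81.3 CPM in CKO A and 76.4 in CKO B, against 118 in WT A and 112 in WT B (1.46-fold lower, edgeR adjusted p = 0.0257), and lost its call without CKO B, without WT A and without WT B. Tcf21, a marker of alveolar fibroblasts, was among those above 0, at 41.7 and 58.2 CPM in CKO against 32.4 and 25.9 in WT. Tcf21 missed the threshold in edgeR (adjusted p = 0.0542) but passed in DESeq2 (adjusted p = 0.00593). Tcf21 also passed in edgeR with library size alone (adjusted p = 0.0356) and with no filter (4.57e-07). It did not pass in limma-voom (adjusted p = 0.0666), nor in edgeR with RLE size factors (0.0654), a mean CPM of at least 1 (0.0732) or robust estimation off (0.0562). Of 8 genes of the hedgehog pathway, which lies upstream of Foxf1 and Foxf2, 0 were called in edgeR, 1 was called in DESeq2, and 2 (Ptch1 and Gli3) were lower at an unadjusted p under 0.05. Ptch1, the receptor and a direct target of the pathway, was at 187 and 242 CPM in CKO against 388 and 298 in WT. It missed the threshold in edgeR (adjusted p = 0.0600) but passed in DESeq2 (adjusted p = 0.00651). Ptch1 also passed in edgeR with library size alone (adjusted p = 0.0298) and with no filter (0.00015). It did not pass in limma-voom (adjusted p = 0.0719), nor in edgeR with RLE size factors (0.0778), a mean CPM of at least 1 (0.0793) or robust estimation off (0.0701).

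The tested genes whose pattern lay closest to that of Foxp1 over the 4 libraries were Amot, Col24a1 and E2f8, at distances of 0.0437, 0.0563 and 0.0626 between centred log2 CPM values, among 9458 genes searched. A further 16 genes lay within 0.1, and with 4 libraries such closeness is a description of these values alone.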
